A study of Mus musculus with 12 samples.

Results

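The 36 genes described here encode the enzymes, regulators and carriers through which cells take up glucose, store it as glycogen, break it down to pyruvate and lactate, divert it into the pentose phosphate pathway and move lactate across the membrane. The list is of symbols by pathway, with no measured value in its rule, though it was drawn up with earlier results of these data known. All 36 were found among the 48709 genes of each library. All 36 had enough counts to be tested. The RNA came from ACSA-2+ brain cells, ACSA-2 being an antigen on the astrocyte surface. They were collected 24 h after tMCAO (transient occlusion of the middle cerebral artery), a stroke model in which the artery of 1 hemisphere is blocked and reopened. Each mouse gave 1 library from the occluded (ipsilateral) and 1 from the opposite (contralateral) hemisphere. There were 6 mice, 12 libraries and 4 groups of 3.

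All mice were C57BL/6 of postnatal day 90 to 120. All carried Gfap-CreERT2, which drives a tamoxifen-dependent Cre from the Gfap promoter and so also reaches other cells that use it, together with floxed alleles of the gene that the study deletes. The mice labelled wild-type (WT; 296, 297 and 474) received corn oil. The mice labelled knockout (KO; 295, 298 and 300) received tamoxifen. Drug and deletion therefore cannot be told apart, and no group without an occlusion is described here. The contralateral hemisphere of the same mouse serves as the comparison for the ipsilateral one.

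In brain, glucose enters through facilitated carriers and is trapped by hexokinase. Astrocytes hold nearly all of the glycogen of the brain, and they are known for releasing lactate, which neighbouring cells can oxidise. When oxygen is short, cells are known to favour the release of lactate, and hypoxia-inducible factors are known to raise the transcription of many glycolytic genes. The oxidative branch of the pentose phosphate pathway makes the NADPH that is used against oxidants.

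Libraries held 11187723 to 15780600 counts, and 18292 to 19024 genes had counts. The 36 genes took 0.783 to 1.39% of the counts of a library. Levels are in CPM, counts divided by the TMM-scaled library total and brought to a common depth, and values of 3 libraries are given in the order of mice 296, 297 and 474 for WT and 295, 298 and 300 for KO. Mouse 296 stood apart, with 4 to 8 counts of Xist and 2733 to 2917 counts of 4 Y-linked genes, against 9140 to 29592 and 0 to 8 in the other mice, so it was the male among them. Its libraries also had the highest neutrophil marker averages, 2.64 log2 CPM contralaterally and 3.79 ipsilaterally, against -1.88 to 1.03 in the other libraries. The part of this difference in the values of mouse 296 was not tested. The KO ipsilateral library of mouse 300 had the lowest microglial average, 4.49 log2 CPM against 6.87 and 7.41 in the other KO ipsilateral libraries.

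Cell type markers were read in the same libraries. The 8 astrocyte markers averaged 9.31 to 10.57 log2 CPM and the 8 neuronal markers 0.88 to 2.48, so the defining markers of the selected cell type were abundant. The 8 oligodendrocyte markers averaged 8.62 to 10.85, and the 4 ependymal or choroid plexus markers 6.27 to 8.74. Microglial, endothelial and mural cell markers were also present, with no marker of the 10 lists at 0 in a whole group. The oligodendrocyte average lay above the astrocyte average in each WT library and below it in each KO library. In such bulk libraries, fewer cells of a type and less RNA per cell cannot be told apart.

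Per length, in TPM (the deposited length-scaled values), Aldoc stood first of the 36 in WT contralateral libraries with 2637 ± 763 TPM (SD, n = 3). Aldoc encodes an aldolase that in brain is found mainly in astrocytes. Basigin (Bsg), a membrane partner of lactate carriers such as Slc16a1 and Slc16a3, followed with 1338 ± 680.5 TPM, then the glucose carrier Slc2a1 with 1209 ± 289.7. Pyruvate kinase (Pkm) with 903 ± 46.6 and the lactate dehydrogenase subunit Ldhb with 901 ± 241 TPM did not differ beyond their spread. At the other end were hexokinase Hk2 with 8.40 ± 4.36 TPM and the lactate carriers Slc16a3 with 3.07 ± 0.821 and Slc16a7 with 1.90 ± 0.494.

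Promoter sequences are shown for 5 of the genes that passed the test over both genotypes, 3 that rose (Ldha, Hk2, Slc16a3) and 2 that fell (Pygb, Pygm). They are from RefSeq (build GRCm38.p6), which holds windows for 34 of the 36 genes. Each is the part of the 250 bases before an annotated start that lies outside annotated exons, 5′ to 3′ on the strand of the gene. Capitals mark matches on either strand of ACGTG, the first motif searched, and of GCGTG, the second motif. Both are forms of the core letters bound by hypoxia-inducible factors. Where the first motif and its complement overlap by sharing letters, both count.
Ldha promoter, chr7:46845554-46845803, + strand: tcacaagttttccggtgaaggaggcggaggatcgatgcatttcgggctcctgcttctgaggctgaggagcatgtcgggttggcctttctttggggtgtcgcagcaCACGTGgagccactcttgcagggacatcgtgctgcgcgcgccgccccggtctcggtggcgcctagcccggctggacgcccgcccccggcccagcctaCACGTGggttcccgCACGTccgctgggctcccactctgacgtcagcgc
Hk2 promoter, chr6:82774455-82774704, - strand: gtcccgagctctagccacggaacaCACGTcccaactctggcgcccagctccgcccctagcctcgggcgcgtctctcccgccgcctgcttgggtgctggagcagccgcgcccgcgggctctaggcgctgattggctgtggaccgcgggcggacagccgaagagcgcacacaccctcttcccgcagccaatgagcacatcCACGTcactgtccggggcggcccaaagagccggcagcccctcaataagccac
Slc16a3 promoter, chr11:120948817-120949052, + strand: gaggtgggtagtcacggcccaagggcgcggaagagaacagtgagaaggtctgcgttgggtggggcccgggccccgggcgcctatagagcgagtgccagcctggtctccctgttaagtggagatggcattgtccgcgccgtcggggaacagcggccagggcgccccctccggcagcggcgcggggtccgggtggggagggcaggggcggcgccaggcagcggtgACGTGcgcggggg
Pygb promoter, chr2:150786546-150786734, + strand: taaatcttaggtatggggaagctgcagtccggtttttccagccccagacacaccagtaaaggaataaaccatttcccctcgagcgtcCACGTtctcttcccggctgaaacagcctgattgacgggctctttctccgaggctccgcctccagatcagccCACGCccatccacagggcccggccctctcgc
Pygm promoter, chr19:6384158-6384398, + strand: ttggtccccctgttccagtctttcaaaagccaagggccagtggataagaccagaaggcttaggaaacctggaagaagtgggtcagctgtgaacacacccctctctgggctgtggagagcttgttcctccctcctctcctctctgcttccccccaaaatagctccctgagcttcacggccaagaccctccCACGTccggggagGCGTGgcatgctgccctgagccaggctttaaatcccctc

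The Ldha stretch held 5 matches of the first motif, Hk2 had 2, and Slc16a3, Pygb and Pygm had 1 each. A second Ldha window, chr7:46846832-46847081, which is not shown, had 0 matches of the first motif and 1 of the second. Counts over the list use the whole 250-base windows, exon bases included. The first motif was present in windows of 16 of 34 genes of the list (47.1%) and of 18.5% of all 27025 genes with a window. The second motif was present in 23 of 34 (67.6%) and in 30.9% of all genes. Outside exons, the first motif remained in 14 genes of the list and the second in 18. Among the 34, the first motif was found in 5 of 9 genes that rose over both genotypes, in 4 of 8 that fell and in 7 of 17 that did not pass. The letters were thus found on genes that moved either way, and a match is a description of the sequence, not of binding.

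The comparison of the hemispheres in WT mice asks how the occlusion changed these genes in mice given corn oil. Of the 36 genes, 5 rose and 7 fell (edgeR, Benjamini-Hochberg adjusted p under 0.05), while 9.61% of all 15571 genes tested rose and 9.54% fell. The 5 that rose were Hk2, Pfkfb3, Gbe1, Pgd and Slc16a3. The 7 that fell were Pfkm, Aldoc, Ldhb, Pdk2, Pygb, Pygm and Gys1. The median log2 fold change of the 36 was -0.05, against -0.06 over all genes. In KO mice, given tamoxifen, the same comparison called 3 genes, all higher, Slc16a3, Ldha and Pgd, where 5.45% of all genes rose and 0.841% fell. The median over the 36 was 0.17, against -0.01 over all genes. All WT ipsilateral libraries lay above all contralateral ones for 5 of the 36 genes and below them for 9, where 17.3% and 16.6% of all genes did so. In KO mice they did so for 12 and 9, where 18.6% and 20.2% of all genes did.

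With the mouse as a block, which uses the pairing of hemispheres, 19 of 36 passed in WT mice (7 higher, 12 lower), where 14.7% of all genes were higher and 15.1% lower. The 7 added were Slc2a1, Pfkl, Tpi1, Eno1 and Bsg, all lower, and Ldha and Slc16a7, both higher. In KO mice 7 passed with the block (5 higher, 2 lower), where 10.9% and 5.10% of all genes were. Hk2, Pfkfb3 and Taldo1 were added as higher and Pygb and Pfkfb2 as lower, and Pgd no longer passed (adjusted p = 0.0570). For KO mice DESeq2 called 7 genes (13.2% of all genes it tested), and a fit of the KO groups alone called 8 (11.9%). The calls rest on few mice. In WT mice 5 genes passed without mouse 297 and 4 without mouse 474, and 7 without the ipsilateral library of mouse 297 or the contralateral one of mouse 474. In KO mice none passed without mouse 295, without mouse 300, or without the contralateral library of mouse 298 or of mouse 300, and 1 passed without either library of mouse 295 or the ipsilateral one of mouse 300. Leaving out the ipsilateral library of mouse 298 gave 8 calls. Without the male mouse 296, 13 passed in WT and 10 in KO mice, and 5 passed in KO mice without its contralateral library alone.

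**Figure D1:**
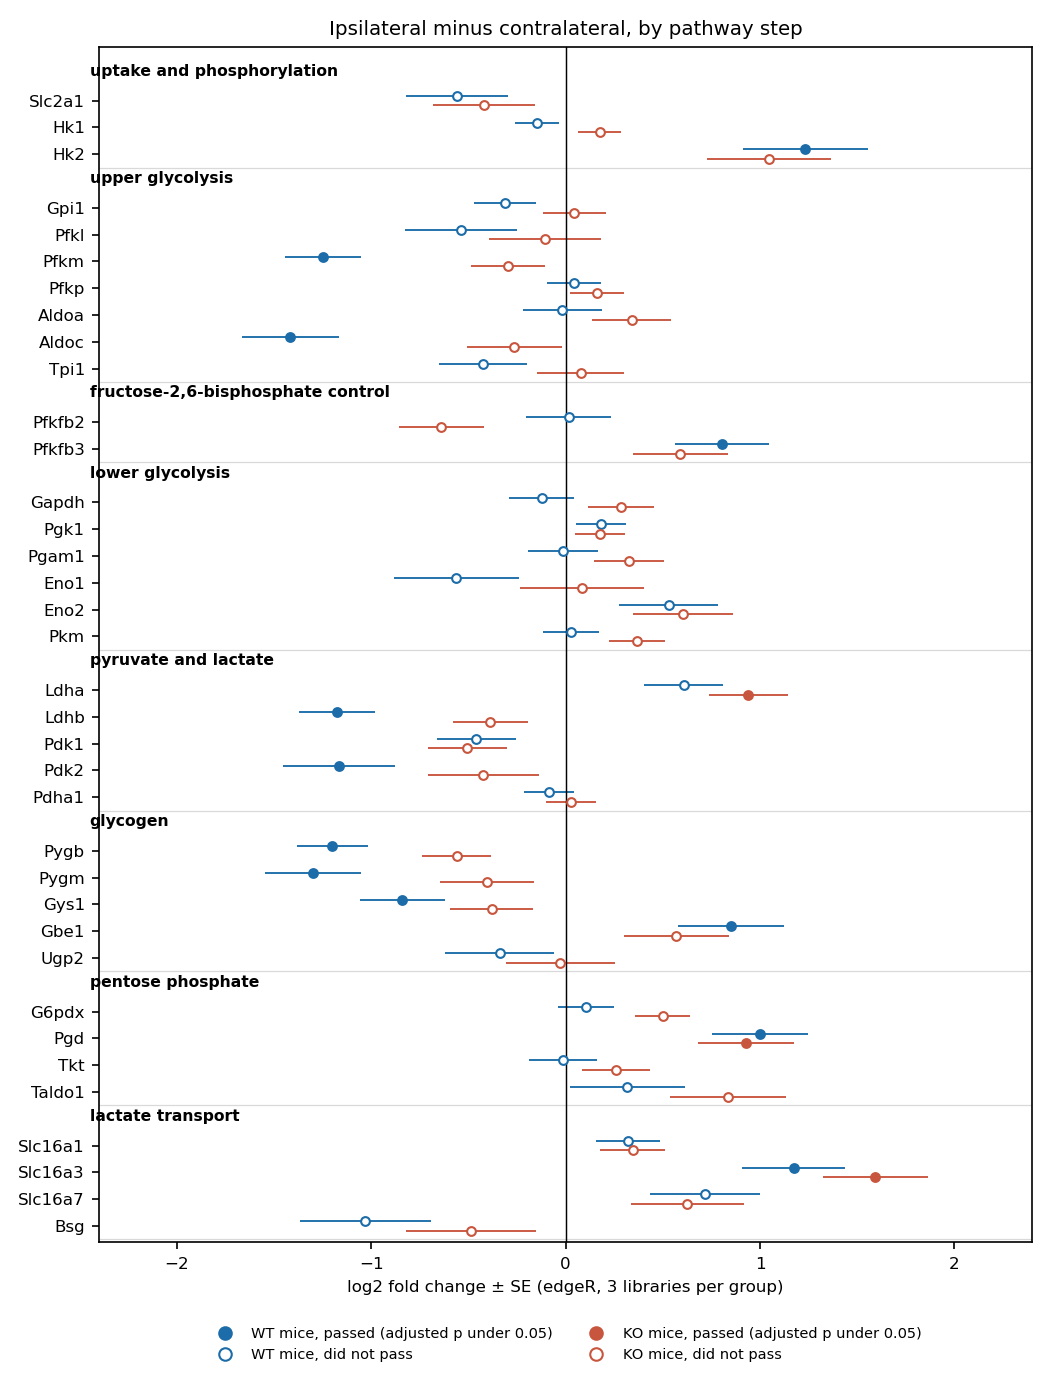
Log2 fold change of ipsilateral over contralateral libraries for the 36 genes by pathway step, WT in blue and KO in red. Points are edgeR estimates, bars are SE (3 libraries per group), and filled points passed at an adjusted p under 0.05, 12 in WT and 3 in KO mice.

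At glucose uptake and phosphorylation, 1 of 3 genes, Hk2, passed without the block. Hk2 encodes an inducible hexokinase that can bind to mitochondria. It stood at 25.2, 11.5 and 10.3 CPM in WT contralateral and at 44.0, 35.1 and 31.5 in WT ipsilateral libraries, with no overlap (log2 fold change 1.23 ± 0.32, adjusted p = 0.0206). In KO libraries it stood at 20.9, 16.2 and 16.2 and at 49.5, 30.9 and 29.6, again with no overlap, but did not pass (log2 fold change 1.05 ± 0.32, adjusted p = 0.0704; 0.0130 with the block). Hk2 was higher on the ipsilateral side in each of the 6 mice.

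The constitutive hexokinase Hk1 passed in neither genotype. It averaged 171 ± 7.73 and 154 ± 4.65 CPM in WT contralateral and ipsilateral libraries, and 206 ± 3.17 and 233 ± 22.9 in KO ones. Slc2a1, the glucose carrier of endothelium and astrocytes, stood at 1561, 1394 and 1000.1 CPM contralaterally and 1190.2, 841 and 653 ipsilaterally in WT mice. It was lower ipsilaterally in each of the 6 mice, yet passed in WT mice with the block alone (log2 fold change -0.56 ± 0.26, adjusted p = 0.158; 0.0154 with the block). In KO mice its log2 fold change was -0.42 ± 0.26.

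In upper glycolysis 2 of 7 genes fell in WT mice and none rose. Pfkm (chr15:98092589-98132451 in mm10, + strand), the muscle-type phosphofructokinase subunit, stood at 384, 371 and 567 CPM contralaterally and 173, 178 and 206 ipsilaterally. It fell by 1.25 ± 0.19 on the log2 scale (adjusted p = 0.00219). Aldoc (chr11:78322968-78327781, + strand) stood at 2054, 2359.7 and 3692 CPM and 876, 1047 and 1113, and fell by 1.42 ± 0.25 (adjusted p = 0.00351). All WT ipsilateral libraries lay below all WT contralateral ones for both genes.

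In KO mice neither passed. Pfkm stood at 554, 589 and 570.1 CPM contralaterally and 362, 531 and 500.3 ipsilaterally (-0.30 ± 0.19), and Aldoc at 3288, 3531 and 3859.6 and 2161, 3131 and 3604 (-0.26 ± 0.24). Both were lower ipsilaterally in each of the 3 KO mice, most so in mouse 295.

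None of the isozymes of these genes passed without the block. The platelet-type subunit Pfkp averaged 239 ± 13 and 246 ± 35.2 CPM in WT contralateral and ipsilateral libraries, and 240.5 ± 25.6 and 269 ± 15.3 in KO ones. The liver-type subunit Pfkl averaged 104 ± 35.0 and 71.6 ± 26.8 in WT libraries and was lower in each WT mouse (log2 fold change -0.54 ± 0.29, adjusted p = 0.209; 0.00538 with the block), and 132 ± 12.6 and 122 ± 20.8 in KO ones. The ubiquitous aldolase Aldoa averaged 652 ± 143 and 644 ± 106 in WT and 619 ± 47.3 and 784 ± 157 in KO libraries.

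Gpi1, which turns glucose phosphate into fructose phosphate, averaged 496 ± 107 and 399 ± 43.6 CPM in WT and 539.8 ± 31.1 and 557 ± 10.3 in KO libraries. Tpi1, the triose phosphate isomerase, averaged 206 ± 65.6 and 154 ± 32.5 in WT and 245 ± 21.6 and 259 ± 34.5 in KO libraries, and was lower in each WT mouse (adjusted p = 0.203, and 0.0395 with the block).

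Pfkfb3 and Pfkfb2 encode enzymes that set the level of the fructose bisphosphate that activates phosphofructokinase, and Pfkfb3 mostly makes it. Pfkfb3 stood at 159, 94.1 and 94.5 CPM contralaterally and 269, 183 and 155 ipsilaterally in WT mice (log2 fold change 0.81 ± 0.24, adjusted p = 0.0383). It was higher in each mouse, but the groups overlapped through the high contralateral value of mouse 296, and the call held in 7 of 18 fits that left out a library or a mouse. In KO mice Pfkfb3 stood at 112, 115 and 132 and 208, 185 and 149 (log2 fold change 0.59 ± 0.24, adjusted p = 0.152; 0.0317 with the block).

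Pfkfb2 passed in neither genotype without the block. In WT mice it stood at 15.7, 24.9 and 17.7 CPM contralaterally and 18.6, 19.9 and 20.5 ipsilaterally (log2 fold change 0.02 ± 0.22). In KO mice it was lower in each, at 26.3, 25.1 and 26.3 and 15.9, 21.9 and 11.9 (log2 fold change -0.64 ± 0.22, adjusted p = 0.0996; 0.0498 with the block). Its counts were 0.248 to 0.347 times those implied by the deposited RPKM. Its exons overlap Yod1 on the other strand.

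In lower glycolysis none of 6 genes passed in either genotype. Gapdh, often used as a reference gene, stood at 218, 219 and 292 CPM contralaterally and 233, 227 and 208 ipsilaterally in WT mice, and at 228, 211 and 235 and 254, 228 and 339 in KO mice. Its counts were 0.336 to 0.379 times those implied by RPKM, and it has many near copies in the genome. Pgk1, Pgam1 and Pkm averaged 221 ± 34.8, 175 ± 42.6 and 728 ± 42.3 CPM in WT contralateral and 251 ± 5.20, 174 ± 25.3 and 744 ± 27.5 in WT ipsilateral libraries. These 3 genes encode the kinase, mutase and pyruvate kinase of the last steps of the pathway.

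In KO mice, Pgk1, Pgam1 and Pkm averaged 239 ± 5.59, 181 ± 5.33 and 698 ± 39.2 CPM contralaterally and 269.8 ± 16.6, 227 ± 32.0 and 901 ± 141 ipsilaterally. All 6 genes of the step had positive log2 fold changes in KO mice (0.08 to 0.61), where 49.0% of all genes did. In WT mice 3 of 6 did (-0.56 to 0.53), where 45.4% of all genes did. In TPM the KO mean of Eno1 was instead lower ipsilaterally, 306 ± 92.6 contralaterally and 291 ± 64.9 ipsilaterally. The enolase Eno1 varied between mice of a group, at 201, 198 and 444 CPM contralaterally and 170.4, 156 and 244 ipsilaterally in WT mice and 444, 394 and 243 and 432, 381 and 332 in KO mice. With the block it was lower in WT mice (adjusted p = 0.0493). Eno2, the enolase best known from neurons, averaged 27.8 ± 7.44 and 40.2 ± 4.91 in WT and 19.3 ± 3.40 and 29.4 ± 10.1 in KO libraries.

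The lactate dehydrogenase subunits went in opposite directions. Ldhb (chr6:142490249-142507957, - strand), the subunit of the tetramer that favours oxidising lactate, stood at 352, 376 and 594 CPM contralaterally and 195, 184 and 206 ipsilaterally in WT mice. It fell by 1.18 ± 0.20 on the log2 scale (adjusted p = 0.00286). In KO mice it stood at 505, 509 and 496 and 317, 424 and 412, lower in each mouse and without overlap, but did not pass (log2 fold change -0.39 ± 0.19, adjusted p = 0.222).

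Ldha (chr7:46841475-46855627, + strand), the subunit of the tetramer that favours making lactate, had 5 matches of the first promoter motif in the window shown. It stood at 171, 136 and 179 CPM contralaterally and 306, 225 and 404 ipsilaterally in KO mice. It rose by 0.94 ± 0.20 (adjusted p = 0.0236). In WT mice it stood at 166, 139.9 and 179.8 and 219, 272 and 249, also without overlap, and missed the threshold (log2 fold change 0.61 ± 0.20, adjusted p = 0.0556; 0.0149 with the block). Each of the 6 mice had more Ldha and less Ldhb on the ipsilateral side.

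Pdk2, a kinase that inhibits pyruvate dehydrogenase, stood at 296, 154 and 199 CPM contralaterally and 142, 78.4 and 68.8 ipsilaterally in WT mice and fell by 1.17 ± 0.29 (adjusted p = 0.0165). In KO mice it stood at 171, 188 and 196 and 108, 158 and 148 (log2 fold change -0.42 ± 0.28, adjusted p = 0.355). Pdk1, a hypoxia-inducible kinase of the same family, averaged 42.2 ± 5.37 and 30.7 ± 7.41 in WT and 50.9 ± 3.79 and 35.8 ± 8.28 in KO libraries and passed in neither. Pdha1, the catalytic subunit that these kinases phosphorylate, averaged 184 ± 22 and 173 ± 17.9 in WT and 189 ± 9.36 and 193 ± 14.1 in KO libraries, with log2 fold changes of -0.09 ± 0.13 and 0.03 ± 0.13.

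**Figure D2:**
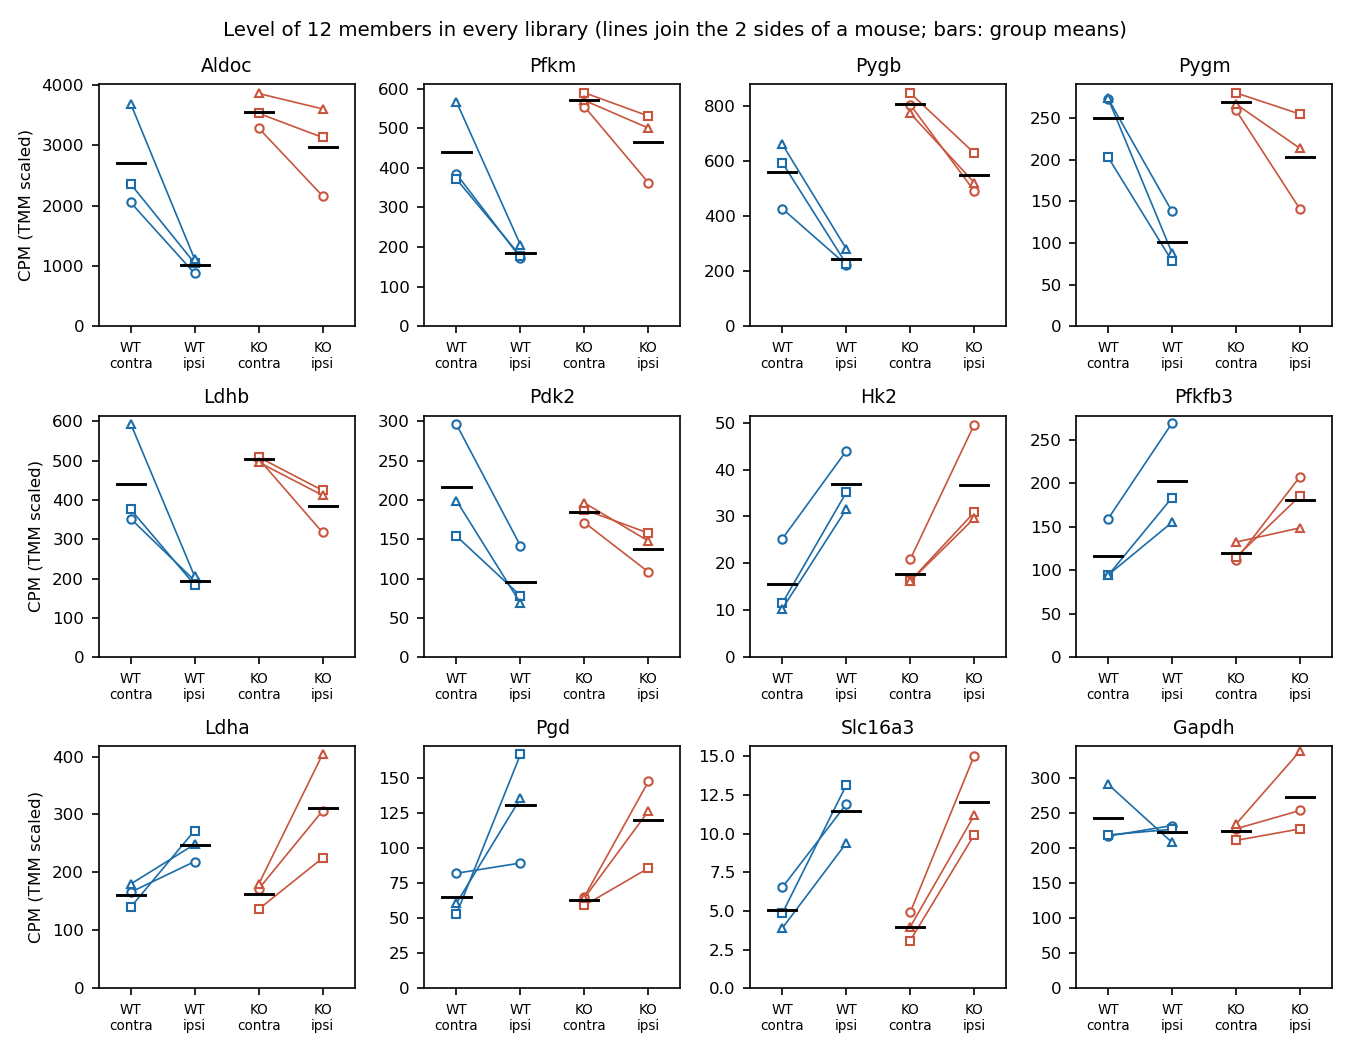
CPM of 12 of the genes in each library on linear axes from 0, WT in blue and KO in red; lines join the hemispheres of a mouse (circles 296 and 295, squares 297 and 298, triangles 474 and 300) and black bars are group means of 3. In WT mice all ipsilateral values of Aldoc, Pfkm, Pygb, Pygm, Ldhb and Pdk2 lie below all contralateral ones.

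Of the 5 glycogen genes, 3 fell and 1 rose in WT mice. Pygb (chr2:150786735-150831758, + strand), the brain form of glycogen phosphorylase, which releases glucose units from glycogen, stood at 428, 596 and 663 CPM contralaterally and 224, 227 and 282 ipsilaterally. It fell by 1.20 ± 0.18 on the log2 scale (adjusted p = 0.00204). Pygm (chr19:6384399-6398459, + strand), the muscle form, which astrocytes also express, stood at 273, 203 and 274 and 138, 78.4 and 88.1 and fell by 1.30 ± 0.25 (adjusted p = 0.00515). Pygm did not pass without mouse 474 (adjusted p = 0.0538).

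Gys1, the glycogen synthase outside the liver, stood at 35.5, 48.9 and 67.3 CPM and 21.7, 32.1 and 30.8 in WT mice and fell by 0.84 ± 0.22 (adjusted p = 0.0203). The glycogen-degrading and the glycogen-making enzyme were thus both lower. Gbe1, the branching enzyme, went the other way, from 15.4, 16.0 and 20.1 to 16.7, 35.7 and 40.3 (log2 fold change 0.85 ± 0.27, adjusted p = 0.0475), but mouse 296 barely moved and the call held in 2 of 18 fits that left out a library or a mouse. Ugp2, which makes UDP-glucose for glycogen, averaged 79.5 ± 34.8 and 62.8 ± 16.1 and did not pass.

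In KO mice no glycogen gene passed without the block. Pygb stood at 807, 849 and 775 CPM contralaterally and 493, 631 and 523 ipsilaterally, lower in each mouse (log2 fold change -0.56 ± 0.18, adjusted p = 0.0811; 0.0267 with the block). Pygm stood at 259, 280.2 and 267 and 141, 255 and 214 (-0.40 ± 0.24), and Gys1 at 62.8, 66.5 and 63.0 and 42.3, 54.2 and 51.1 (-0.38 ± 0.21). For these 3 genes the KO groups also did not overlap. Gbe1 averaged 19.1 ± 2.18 and 28.3 ± 4.15, and Ugp2 111 ± 12.7 and 109 ± 22.1.

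In the pentose phosphate pathway Pgd rose in both genotypes. Pgd encodes the dehydrogenase of phosphogluconate, which yields NADPH. It stood at 82.1, 53.0 and 60.7 CPM contralaterally and 89.4, 167 and 136 ipsilaterally in WT mice (log2 fold change 1.0 ± 0.25, adjusted p = 0.0171), with a small step in mouse 296. KO libraries had Pgd at 65.4, 59.2 and 64.5 and 148, 85.8 and 126 (log2 fold change 0.93 ± 0.25, adjusted p = 0.0477; 0.0570 with the block). The KO call was also lost under 3 other settings and held in 5 of 18 fits that left out a library or a mouse.

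G6pdx, the first enzyme of the branch and the other source of NADPH, averaged 74.9 ± 9.06 and 80.6 ± 12.8 CPM in WT mice and 67.7 ± 3.78 and 95.6 ± 9.65 in KO mice (log2 fold change 0.50 ± 0.14, adjusted p = 0.0598). Of the enzymes that return sugars to glycolysis, transketolase (Tkt) averaged 363 ± 74.6 and 359 ± 46.7 in WT and 381 ± 41.8 and 456 ± 53.4 in KO libraries. Transaldolase (Taldo1) stood at 126, 99.3 and 89.7 CPM contralaterally and 210.3, 134 and 218 ipsilaterally in KO mice, without overlap (log2 fold change 0.84 ± 0.30, adjusted p = 0.107; 0.0173 with the block). In WT mice it averaged 160.4 ± 48.1 and 199.95 ± 66.8. All 4 genes of the step had positive log2 fold changes in KO mice, where 49.0% of all genes did.

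Among lactate carriers, Slc16a3 (chr11:120948480-120960868, + strand) rose in both genotypes. It encodes a carrier known for exporting lactate from glycolytic cells. It stood at 6.52, 4.84 and 3.88 CPM contralaterally and 11.9, 13.1 and 9.39 ipsilaterally in WT mice (log2 fold change 1.17 ± 0.27, adjusted p = 0.0114). KO libraries had Slc16a3 at 4.91, 3.09 and 3.97 and 15.0, 9.92 and 11.2 (log2 fold change 1.59 ± 0.27, adjusted p = 0.0109). The groups did not overlap in either genotype. Per length, Slc16a3 stayed at or under 0.0843 times the TPM of Slc16a1 in every library.

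Slc16a1, the carrier of astrocytes and endothelium, averaged 119 ± 19.3 and 149 ± 14.6 CPM in WT and 132 ± 18.7 and 168 ± 24.6 in KO libraries. Slc16a7, best known as the carrier of neurons, averaged 6.97 ± 1.51 and 11.5 ± 1.70 in WT libraries (log2 fold change 0.72 ± 0.28, adjusted p = 0.0958; 0.0300 with the block) and 3.97 ± 0.714 and 6.09 ± 2.16 in KO ones. Bsg stood at 317, 913 and 1042 CPM contralaterally and 283, 441 and 386 ipsilaterally in WT mice (log2 fold change -1.03 ± 0.34, adjusted p = 0.0514; 0.0192 with the block). Its contralateral level in mouse 296 was far below those of the other WT mice. In KO mice it averaged 821 ± 82.3 and 586 ± 27.1.

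Taking the mean change over both genotypes, which uses 6 mice, 10 of the 36 genes rose and 9 fell, where 17.1% of all genes rose and 16.1% fell. To the genes named above this adds Eno2, G6pdx, Slc16a1 and Slc16a7 as higher and Pdk1 and Bsg as lower. Among those that rose, the log2 fold change was 1.38 ± 0.19 for Slc16a3 (adjusted p = 0.000482) and 1.14 ± 0.23 for Hk2 (0.00325). It was 0.96 ± 0.18 for Pgd (0.00206), 0.77 ± 0.14 for Ldha (0.00230) and 0.70 ± 0.17 for Pfkfb3 (0.00980). For Slc16a3, Hk2, Pgd and Ldha all 6 ipsilateral libraries lay above all 6 contralateral ones, where 5.84% of all genes did so. None of the 36 lay wholly below, where 2.76% of all genes did. With the block 22 of the 36 passed, Slc2a1, Pfkl and Taldo1 being added, where 21.1% of all genes were higher and 21.5% lower.

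Among those that fell over both genotypes, the log2 fold change was -0.88 ± 0.13 for Pygb (adjusted p = 0.000618), -0.85 ± 0.17 for Pygm (0.00362) and -0.84 ± 0.17 for Aldoc (0.00407). It was -0.78 ± 0.14 for Ldhb (0.00166) and -0.77 ± 0.14 for Pfkm (0.00166). Each of these 5 genes was lower ipsilaterally in all 6 mice, with overlap between the sets of libraries. The other passing genes had log2 fold changes of -0.80 (Pdk2), -0.76 (Bsg), -0.61 (Gys1), -0.48 (Pdk1), 0.33 (Slc16a1), 0.30 (G6pdx), 0.57 (Eno2), 0.67 (Slc16a7) and 0.71 (Gbe1). On the TPM scale 6 rose and 11 fell, where 13.2% and 16.7% of all genes did. The count was 12 without mouse 297 and 10 without mouse 295. Of the 19 calls, 10 held in all 18 fits that left out a library or a mouse. The call held in 4 of these fits for G6pdx and for Slc16a1, 5 for Bsg, 8 for Eno2 and for Slc16a7 and 11 for Pdk1. The share of all genes that passed in these fits was not counted.

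Within a library the ratio of related genes does not depend on library scaling. The ratio of Ldha to Ldhb in TPM went from a log2 of -2.50 ± 0.32 to -0.75 ± 0.21 in WT and from -2.72 ± 0.22 to -1.42 ± 0.50 in KO mice (SD, n = 3). The log2 change per mouse was 1.75 ± 0.43 and 1.31 ± 0.28. Even so, Ldhb stayed the more abundant subunit in all 12 libraries.

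The same held for Aldoa to Aldoc, whose log2 ratio changed per mouse by 1.37 ± 0.11 in WT and 0.62 ± 0.29 in KO mice. Pfkp to Pfkm changed by 1.26 ± 0.34 and 0.48 ± 0.40, and Hk2 to Hk1 by 1.49 ± 0.52 and 0.84 ± 0.24. Pfkfb3 to Pfkfb2 changed by 1.05 ± 0.29 and 1.24 ± 0.29, and Slc16a3 to Slc16a1 by 0.86 ± 0.39 and 1.25 ± 0.11. Of 11 pairs computed, these are the 6 whose ratio was higher ipsilaterally in 3 of 3 mice of each genotype, so they are a description with no test. Eno1 to Eno2 was lower ipsilaterally in all 6 mice (-1.06 ± 0.73 in WT and -0.44 ± 0.26 in KO mice), as was Slc16a1 to Slc16a7 (-0.40 ± 0.11 and -0.22 ± 0.28). The other 3 pairs were mixed. Pfkl to Pfkm changed by 0.67 ± 0.24 and 0.20 ± 0.23, Pdk1 to Pdk2 by 0.71 ± 0.80 and -0.09 ± 0.31, and Pygb to Pygm by 0.15 ± 0.23 in WT and -0.12 ± 0.26 in KO mice.

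**Figure D3:**
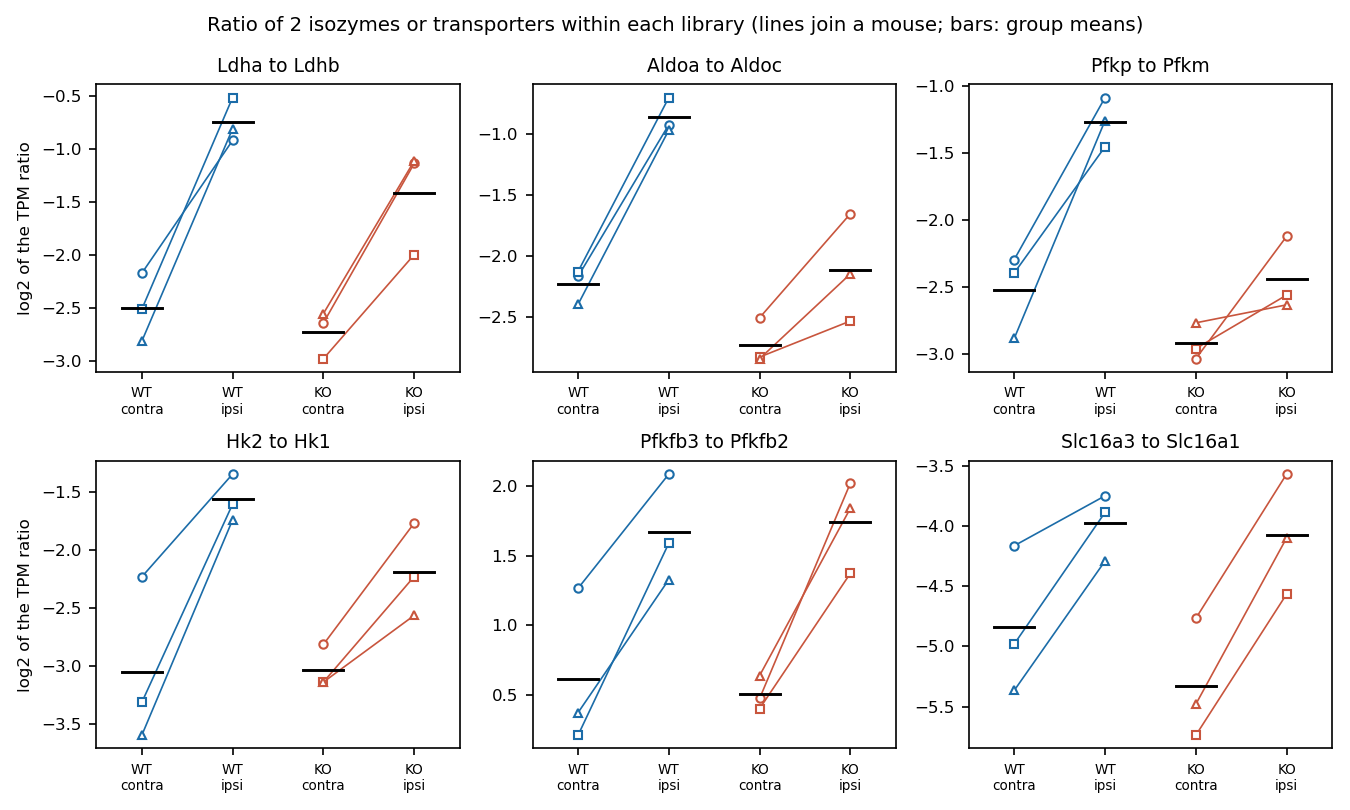
Log2 ratio of the TPM of 6 gene pairs in each library, WT in blue and KO in red; lines join the hemispheres of a mouse and black bars are group means of 3. Every line slopes upward from the contralateral to the ipsilateral side, and Ldha to Ldhb stays below 0 throughout.

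Summed over the 15 enzymes from hexokinase to pyruvate kinase, levels were 6901 ± 1367 TPM in WT contralateral and 4979 ± 436 in WT ipsilateral libraries. They were 8765 ± 143 and 7799 ± 253 TPM in KO contralateral and ipsilateral libraries (SD, n = 3, with no test). Aldoc alone had means of 2637 ± 763 and 1029 ± 148 TPM in WT and 3815 ± 291 and 2796 ± 509.9 in KO libraries.

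Other genes of the pathways, 56 on a fixed list of which 51 could be tested, were read in the same fit. Of 19 other glycogen genes tested, 1 rose and 7 fell in WT mice, and over the whole list 5 rose and 10 fell of 51, where 9.61% of all genes rose and 9.54% fell. Ppp1r3g, which targets protein phosphatase to glycogen, went from 36.4 to 10.7 mean CPM (log2 fold change -1.76 ± 0.25, adjusted p = 0.00158). Phosphoglucomutase Pgm2 had a log2 fold change of -1.27 ± 0.20 (0.00223), acid glucosidase Gaa -0.63 ± 0.11 (0.00324) and the enolase Eno3 -1.25 ± 0.23 (0.00433). Another glycogen-targeting subunit, Ppp1r3d, had -1.09 ± 0.21 (0.00499). In KO mice 1 of 51 passed, Eno3 (-0.96 ± 0.23, adjusted p = 0.0301), where 5.45% of all genes rose and 0.841% fell. No glycogen gene of this list passed there. With the mouse as a block 1 of the 51 was higher and 7 were lower in KO mice, where 10.9% and 5.10% of all genes were. Among the lower ones were 4 glycogen genes.

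Markers of cell types moved beside these results. In WT mice 5 of 8 astrocyte markers fell ipsilaterally and none rose, and the mean of the list went from 9.85 to 10.2 log2 CPM in contralateral to 9.31 to 9.66 in ipsilateral libraries, which did not overlap. The median log2 fold change of these markers was -0.76. Of 7 mural cell markers 3 fell, from 6.70 to 7.08 down to 6.13 to 6.69. Microglial markers averaged 5.19 to 5.29 contralaterally and 5.88 to 6.47 ipsilaterally, with 0 of 8 passing. In KO mice astrocyte markers averaged 10.32 to 10.5 and 10.18 to 10.57, and 1 of 8, Gfap, rose. Oligodendrocyte markers went further in KO mice, from 8.62 to 9.24 contralaterally to 9.54 to 10.1 ipsilaterally without overlap, with 1 of 8 passing, all 8 positive and a median log2 fold change of 0.81. Microglial markers averaged 5.84 to 6.68 and 4.49 to 7.41 in KO libraries, with 0 of 8 passing. All 4 ependymal or choroid plexus markers had negative log2 fold changes in both genotypes (medians -0.78 in WT and -0.72 in KO mice), with 0 passing. They averaged 7.78 to 8.74 contralaterally and 7.36 to 7.89 ipsilaterally in WT mice, and 7.15 to 8 and 6.27 to 7.29 in KO mice. Over both genotypes 2 of these 4 markers fell. The mitochondrial share of counts was 1.68% on the ipsilateral side of KO mouse 298 and 1.83% on that of mouse 300, against 0.923 to 1.21% in the other libraries. The part of these marker shifts and of the mitochondrial share in the values of either genotype was not tested.

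**Figure D4:**
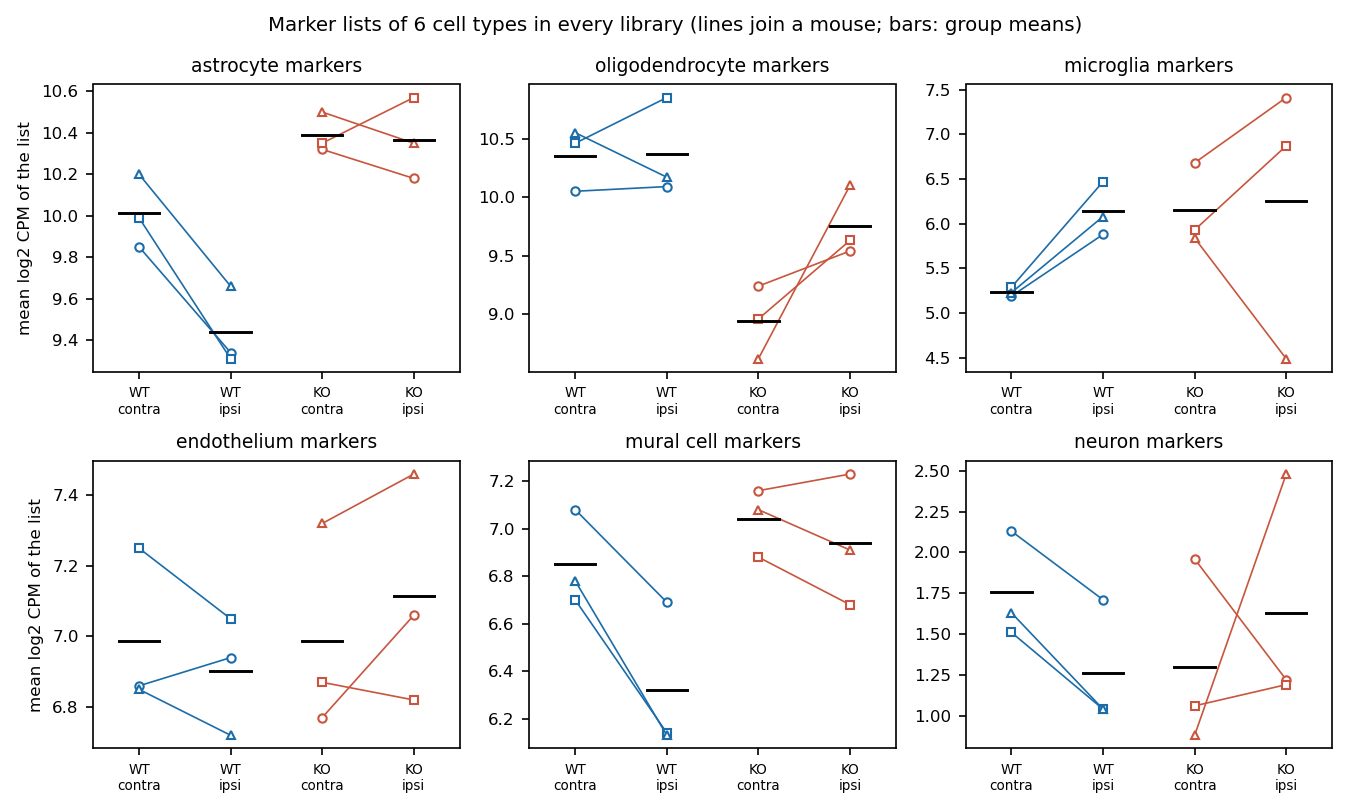
Mean log2 CPM of 6 marker lists in each library, on axes that do not start at 0, WT in blue and KO in red; lines join the hemispheres of a mouse and black bars are group means of 3. Astrocyte markers are lower in all 3 WT ipsilateral libraries (9.31 to 9.66) than in any other library (9.85 to 10.57).

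The comparison of KO with WT mice in the contralateral hemisphere asks whether the genotypes, given tamoxifen or corn oil, differed away from the occlusion. None of the 36 genes passed, where 0.0835% of all genes were higher and 1.41% lower in KO libraries. DESeq2 also called 0 (4.51% of all genes it tested), and 3 of the 36 had an unadjusted p under 0.05 in edgeR. These were Pygb at 428, 596 and 663 CPM in WT and 807, 849 and 775 in KO libraries (log2 fold change 0.53 ± 0.18, adjusted p = 0.204), Hk1 (log2 fold change 0.27 ± 0.11, adjusted p = 0.293) and Slc16a7 (log2 fold change -0.82 ± 0.29, adjusted p = 0.225). The groups did not overlap for these 3 genes. The share of all genes with an unadjusted p under 0.05 was not counted. Over the 36, KO libraries lay wholly above in 4 and wholly below in 1, where 11.0% and 13.5% of all genes did. Of the 51 other pathway genes none passed either. Marker lists differed on this side too. Oligodendrocyte markers were lower in KO contralateral libraries (8.62 to 9.24 against 10.05 to 10.55 log2 CPM, 4 of 8 passing). Astrocyte markers were higher (10.32 to 10.5 against 9.85 to 10.2, 6 of 8 without overlap, 0 passing), as were microglial (5.84 to 6.68 against 5.19 to 5.29) and monocyte or macrophage markers (3.25 to 4.54 against 2.47 to 2.82), with 0 passing. Of the 4 ependymal or choroid plexus markers 1 passed as lower in KO libraries. The part of these marker differences in the values of these genes was not tested.

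In the ipsilateral hemisphere 7 of the 36 genes were higher in KO than in WT libraries and none lower, where 4.33% of all genes were higher and 1.98% lower. They were Hk1, Pfkm, Aldoc, Ldhb, Pygb, Pygm and Gys1. In 28 of 36 genes the log2 fold change was positive, where 52.1% of all genes were, with a median of 0.29 against 0.02 over all genes. This comparison shares the WT ipsilateral libraries with the comparison of hemispheres in WT mice, so that the 6 genes named in both are not independent results.

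Aldoc averaged 1012 ± 122 CPM in WT and 2965 ± 736 in KO ipsilateral libraries (log2 fold change 1.55 ± 0.25, adjusted p = 0.00864), and Pfkm 185 ± 17.6 and 464 ± 89.7 (log2 fold change 1.32 ± 0.19, adjusted p = 0.00659). These were 2.93-fold and 2.50-fold higher levels. Pygb averaged 245 ± 32.9 and 549 ± 72.6 (log2 fold change 1.17 ± 0.18, adjusted p = 0.00752), and Ldhb 195 ± 10.7 and 385 ± 58.5 (log2 fold change 0.98 ± 0.19, adjusted p = 0.0159). Pygm averaged 101 ± 31.9 and 203 ± 57.8 (log2 fold change 1.0 ± 0.24, adjusted p = 0.0336). Its call held in 7 of 18 fits that left out a library or a mouse and in 7 of 9 other settings. For Ldhb the call held in 12 of those 18 fits. For Aldoc, Pfkm, Pygb, Ldhb and Pygm the lowest KO library lay above the highest WT one.

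Hk1 stood at 159.5, 153 and 151 CPM in WT and 241, 207 and 251 in KO ipsilateral libraries (log2 fold change 0.59 ± 0.11, adjusted p = 0.0137), with no overlap. Gys1 stood at 21.7, 32.1 and 30.8 and 42.3, 54.2 and 51.1 and passed barely (log2 fold change 0.80 ± 0.22, adjusted p = 0.0496), and its call was lost under 7 of 9 other settings. The 6 genes whose ipsilateral level rose in either genotype did not pass between them, with log2 fold changes of -0.01 for Hk2, -0.17 for Pfkfb3, -0.12 for Pgd, 0.34 for Ldha, -0.13 for Gbe1 and 0.07 for Slc16a3. Their 95% intervals ran from -0.62 to 0.60, from -0.64 to 0.31, from -0.60 to 0.36, from -0.06 to 0.73, from -0.65 to 0.40 and from -0.43 to 0.58. Slc16a7 was the lowest in KO relative to WT libraries (log2 fold change -0.91 ± 0.28, adjusted p = 0.0827). In 15 of 36 genes the KO libraries lay wholly above the WT ones, where 13.7% of all genes did, and wholly below in 1, where 10.1% did.

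DESeq2 called 11 genes (11.7% of all genes it tested) and a fit of the ipsilateral groups alone 4 (1.31%). None of the 36 passed without mouse 297, 1 without the ipsilateral library of that mouse, 2 without mouse 298 and 3 without mouse 300. Without the KO ipsilateral library of mouse 298 or of mouse 300, 4 passed, and 8 passed without the male mouse 296. Astrocyte markers moved the same way: 6 of 8 were higher in KO ipsilateral libraries (10.18 to 10.57 against 9.31 to 9.66 log2 CPM), and oligodendrocyte markers averaged 9.54 to 10.1 against 10.09 to 10.85. Of the mural cell markers 3 of 7 were higher, and of the ependymal or choroid plexus markers 1 of 4 was lower. The part of these shifts, and of the higher mitochondrial share in mice 298 and 300, in the result was not tested.

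**Figure D5:**
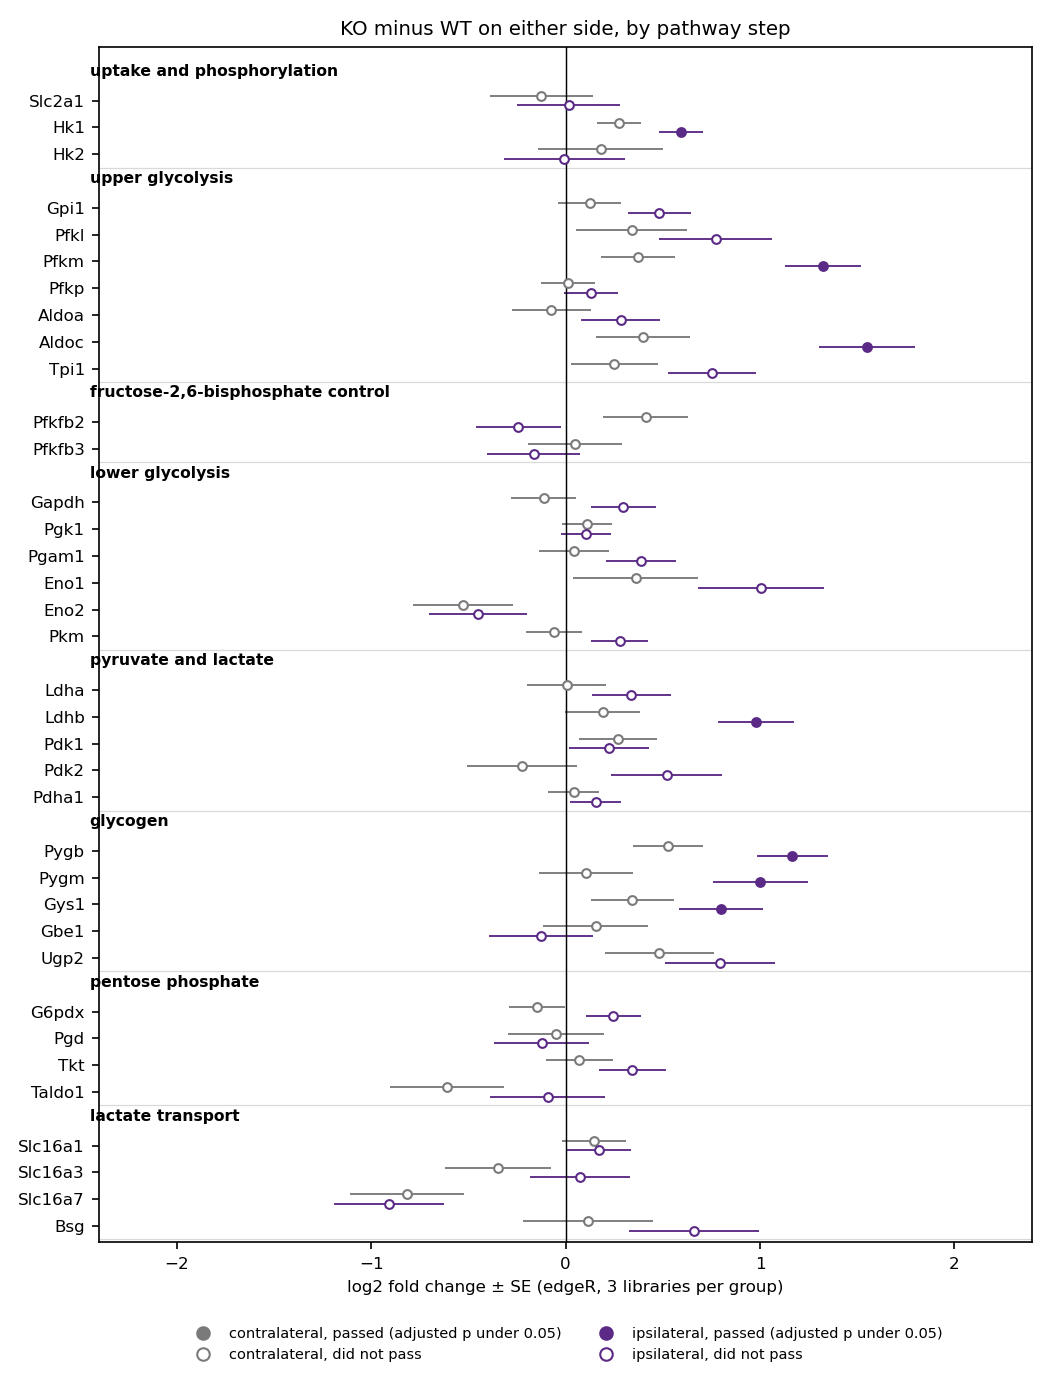
Log2 fold change of KO over WT libraries for the 36 genes by pathway step, contralateral in grey and ipsilateral in purple. Points are edgeR estimates, bars are SE (3 libraries per group), and filled points passed at an adjusted p under 0.05, none contralaterally and 7 ipsilaterally.

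Among other pathway genes, 6 of 19 glycogen genes tested were higher in KO ipsilateral libraries and none lower. Ppp1r3g had a log2 fold change of 1.61 ± 0.25 (adjusted p = 0.00755), Ppp1r3d 1.22 ± 0.21 (0.00888) and Pgm2 1.13 ± 0.20 (0.0105). Ppp1r3c, a further subunit that targets phosphatase to glycogen, had 0.86 ± 0.18 (0.0183), and the phosphorylase kinase subunit Phka1 had 0.68 ± 0.17 (0.0351). Over the whole list of 51, 6 were higher and 2 lower, where 4.33% of all genes were higher and 1.98% lower.

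Whether the response to occlusion differed between genotypes is asked by the interaction, the ipsilateral change in KO mice less that in WT mice. None of the 36 passed, nor did any of the 15571 genes (0%), so a difference between the WT and KO responses was not shown for any gene of the list. In edgeR 5 of 36 had an unadjusted p under 0.05. These were Aldoc with an interaction of 1.15 ± 0.35 on the log2 scale (95% interval 0.48 to 1.83), Pfkm with 0.95 ± 0.27 (0.42 to 1.48), Pygm with 0.90 ± 0.34 (0.22 to 1.57), Ldhb with 0.79 ± 0.27 (0.25 to 1.32) and Pygb with 0.64 ± 0.25 (0.14 to 1.14). The adjusted p of each was 0.948. The share of all genes with an unadjusted p under 0.05 was not counted. DESeq2 called 2, Pfkm (adjusted p = 0.0442) and Aldoc (0.0471), among the 1081 genes that its own filter kept, of which 1.85% passed.

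The deposited counts and RPKM of some of these genes did not match in scale. For 11 of 36 the counts were under 0.95 times those implied by RPKM and the annotated exon length, and for Aldoa they were 1.292 times. These ratios were scaled to 1 at the median gene of a library. Of 13691 genes with enough counts for this ratio, 68.3% lay within 5% of the median and 7.84% under 0.5. Such departures were thus common outside the list too. The ratio was the same in all libraries for Aldoa, Pfkl (0.658), Pfkp (0.701), Pfkm (0.885) and Tkt (0.888). It varied between libraries for others, from 0.699 to 0.744 in Pgk1 and most in Gapdh and Pfkfb2. Whether gene lengths or uncounted reads set these ratios was not tested. Exons of 14 of the 36 overlap a gene on the other strand, among them Pfkm (Senp1) and Gys1 (Ruvbl2). No source used here gives the strand of counting, so reads of such overlaps cannot be told apart.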

How the data were processed

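RNA-seq libraries were made by Illumina sequencing from ACSA-2+ cells of 2 hemispheres of 6 mice. The authors deposited for each library, per the file headers, read counts per gene, TPM and RPKM. The genome build was mm10, per the submitters' processing notes. Which aligner, counter and strand setting were used is not given in the sources used here. Tests used the deposited counts. TPM served to compare genes, and RPKM to compare the counts with the reads it implies.

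Counts were tested with edgeR 4.0.16 in R 4.3.3 (limma 3.58.1), by the quasi-likelihood test with Benjamini-Hochberg adjustment over all 15571 genes that passed filterByExpr at a minimum count of 10, with TMM scaling and all 4 groups in 1 fit (8 residual degrees of freedom, 4 with the mouse as a block). A gene passed at an adjusted p under 0.05. The SE is the size of the log2 fold change divided by the square root of F, and 95% intervals are 1.96 SE to each side. The scripts were tested on simulated data. Alternatives were DESeq2 1.42.0, other scaling, filters, fits of only the groups compared, log2 TPM, the mouse as a block, and leaving out each library or mouse.

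Hemispheres of 1 mouse share its number in the labels. Deviations of the paired libraries from their group means across 12551 genes correlated at 0.695, -0.037 and 0.437 in WT mice 296, 297 and 474 and at 0.390, 0.501 and 0.203 in KO mice 295, 298 and 300. No libraries were duplicates, since chi-square over degrees of freedom between replicates was 11.33 to 70.57. P-values of the main fit rest on the spread between mice within groups of 3, estimated over all 4 groups together. They do not use the pairing of hemispheres. All 36 genes are named. Those that passed have full statistics in pathway order, at most 10 by smallest p, and of other pathway genes at most the 5 with the smallest p. The genes and lists were chosen with earlier results of these data known. The gene that the study deletes is not reported here.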

Additional observations from a re-analysis of the deposited data

Results flagged for a closer look

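In CPM, Hk1, the constitutive hexokinase, was lower ipsilaterally in each WT mouse and higher in each KO mouse. It passed in neither genotype (edgeR adjusted p = 0.385 in WT and 0.334 in KO mice). Its log2 change from the contralateral to the ipsilateral hemisphere was -0.086, -0.102 and -0.249 in WT mice 296, 297 and 474 and 0.199, 0.015 and 0.295 in KO mice 295, 298 and 300, so each mouse of one genotype was lower and each mouse of the other higher. The interaction was 0.32 on the log2 scale and did not pass in edgeR (adjusted p = 0.948). In TPM, Hk1 averaged 84.6 ± 1.52 in KO contralateral and 84.9 ± 8.44 in KO ipsilateral libraries, which overlapped. The share of all genes that split by genotype in this way was not counted.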

How the results depend on the processing

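With the mouse as a block, 19 of the 36 genes passed in the WT comparison of hemispheres and 7 in the KO one, and 22 over both genotypes. For the KO comparison, DESeq2 called 7 genes and the fit of only the groups compared called 8. For KO against WT in the ipsilateral hemisphere, DESeq2 called 11 and the fit of only the groups compared called 4. For the interaction DESeq2 called 2. The cause of these shifts was not tested. Leaving out a library or a mouse gave 4 to 13 calls in WT mice, 0 to 10 in KO mice, 10 to 21 over both genotypes, 0 to 10 in the ipsilateral comparison of genotypes, and 0 in the contralateral one and in the interaction. For the fits that left out a library or a mouse, the share of all genes called was not counted. Among values of single genes under other settings, 5607 kept their side of the threshold, 217 lost a call and 80 gained one. None that had passed changed sign. Scaling moved the median of all genes by at most 0.036 on the log2 scale. Slc16a3 and Slc16a7 were the scarcest of the genes, and their values rest on low counts. Even so, the call of Slc16a3 over both genotypes held in all 18 fits that left out a library or a mouse.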
